A study of Mus musculus with 12 samples.

Results

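The 10 genes described here were grouped as markers of mouse hematopoietic stem cells (HSCs): Procr, Slamf1, Cd48, Ly6a, Ly6e, Kit, Esam, Cd34, Flt3 and Fgd5. Most of them encode proteins by which these cells are recognised and sorted. They were taken by symbol from a table of 46986 features, and each symbol was found on 1 feature. Of the 10, 8 reached at least 1 RPKM (reads scaled by the length of the transcript and by the mapped reads of the library) in at least 3 libraries, the level asked of a gene before it was tested. 8553 features in all reached that level. Cd48 and Fgd5 did not, and their values are given without a test.

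HSCs of C57BL/6 mice, 12 weeks old, were sorted from bone marrow, and the RNA of 2000 cells was sequenced for each of 12 libraries. The 4 groups of 3 libraries were control mice without treatment, control mice on day 12 after 5-fluorouracil (5-FU, 200 mg/kg into a vein), mice given antibiotics, and mice given antibiotics and then 5-FU, also on day 12. The antibiotics were ampicillin, neomycin, metronidazole and vancomycin, taken with the drinking water over 4 to 6 weeks. 5-FU kills cycling cells, and the marrow then regrows from cells that survive. All groups shared the strain and the age, and the labels name no altered allele. They also leave unsaid if the 3 libraries in each group were of separate animals, so p-values measure the spread between libraries, which may be technical. The replicate numbers used below follow the order of the samples, because the labels give none.

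HSCs are enriched from marrow by combining surface proteins that no single cell type owns. Lineage-negative cells with KIT and with SCA-1, the product of Ly6a, hold stem and multipotent progenitor cells. Among them, stem cells are CD150+ (Slamf1) and CD48-, they carry EPCR (Procr) and ESAM, and they are low in CD34 and FLT3, which appear on progenitors. Ly6e is in the group but has no place in this scheme. Fgd5 encodes an exchange factor inside the cell and is used as an HSC reporter locus, so it is a marker but not a surface protein. Nothing in the labels states the sort gates, and whether a gate on one of these proteins bears on its transcript level was not tested.

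On day 12 after 5-FU, transcripts of Ly6a, Slamf1 and Esam were higher and those of Cd34 lower in both the control and the antibiotic arm. Ly6a rose 2.06-fold without antibiotics and 2.33-fold with them, Slamf1 1.72-fold and 2.88-fold, and Esam 1.75-fold and 2.08-fold, as ratios of group mean RPKM. Cd34 fell to 0.651 and 0.586 of its level. Procr rose 1.65-fold in the antibiotic arm. Its control-arm ratio was 1.28, which did not pass the test, and its difference between the arms was not called. Kit, the receptor of stem cell factor, and Ly6e passed the test in none of the 5 comparisons. No member passed the test between antibiotic-treated and untreated mice, with or without 5-FU.

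**Figure D1:**
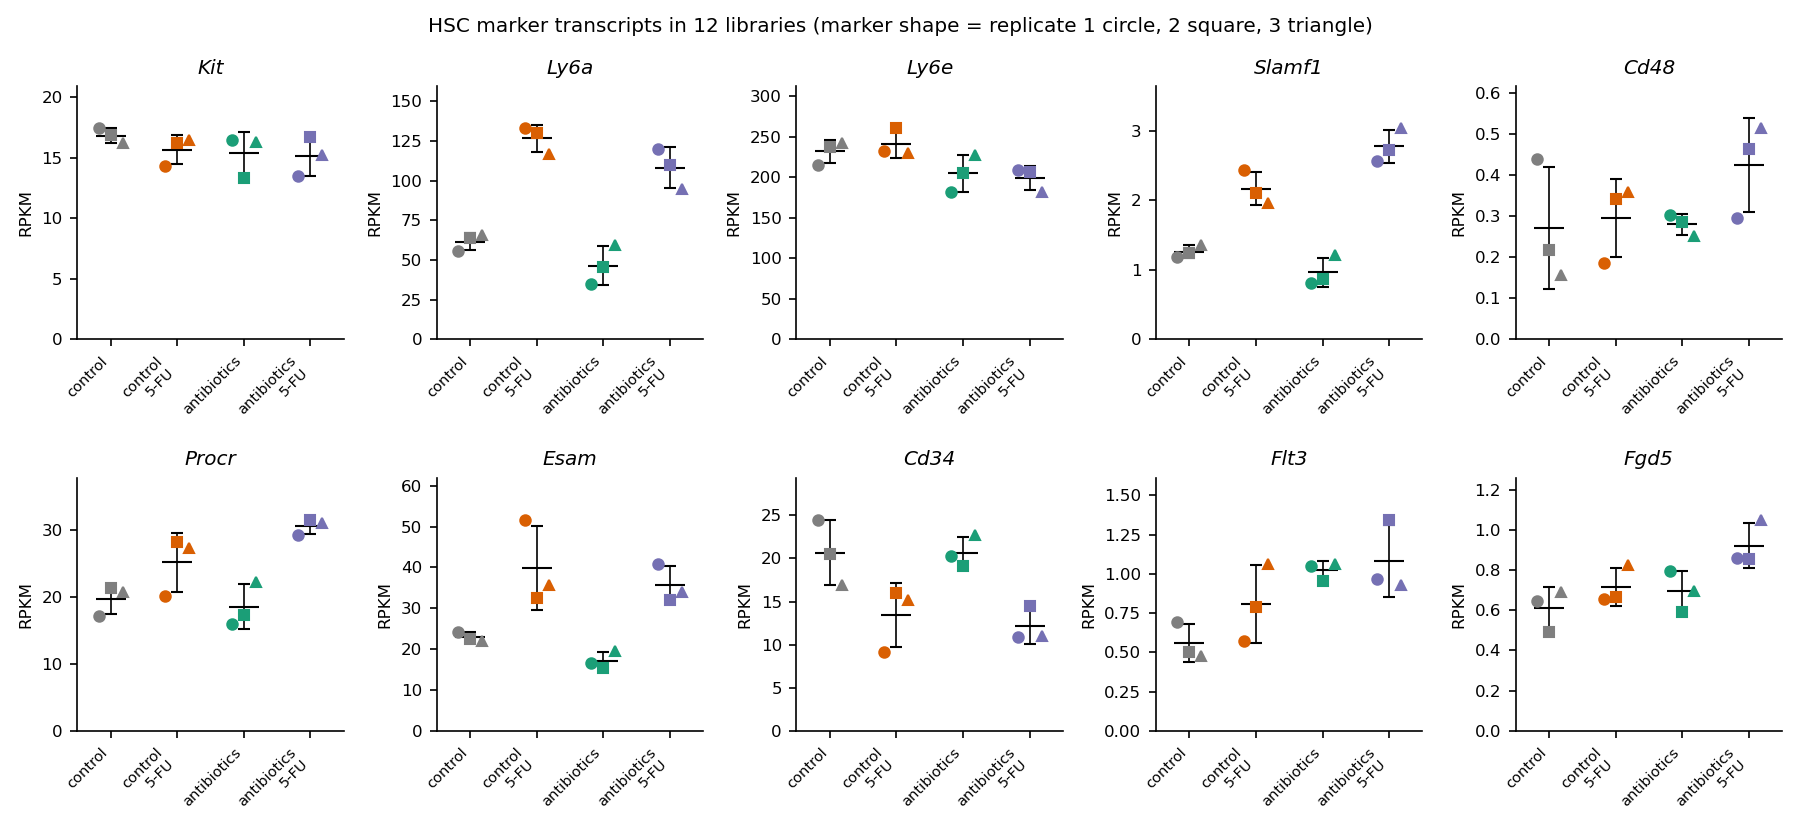
Expression of the 10 genes in RPKM (y axis, from 0) in each of the 12 libraries by group (x axis), with the group mean (long bar) and SD (short bars), n = 3. Marker shape gives the library number. All 6 libraries after 5-FU lie above all 6 without it for Ly6a, Slamf1 and Esam, and below them for Cd34, while the 4 groups overlap for Kit.

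The genes lie on 6 chromosomes, and some are neighbours. Positions are those of the deposited table in mm10, and they match the GENCODE M21 annotation for every one of the 10. Cd48 (chr1:171682009-171705258, + strand) and Slamf1 (chr1:171767127-171801184, + strand) are SLAM family genes separated by 61.9 kb, and Cd34 (chr1:194938819-194961279, + strand) lies on the same chromosome. Ly6e (chr15:74955051-74959905, + strand) and Ly6a (chr15:74994877-74998031, − strand) are Ly6 family genes separated by 35.0 kb. The receptor tyrosine kinase genes Kit (chr5:75574916-75656722, + strand) and Flt3 (chr5:147330741-147400489, − strand) share chromosome 5. Procr lies at chr2:155751117-155755471 (+ strand), Esam at chr9:37528078-37538319 (+ strand) and Fgd5 at chr6:91978878-92076004 (+ strand).

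The sequences just upstream of 4 of these genes are shown because they hold 1 that rose, 1 that fell, 1 that rose in the antibiotic arm and the barely expressed neighbour of the first. They come from RefSeq promoters on GRCm38.p6, the mm10 assembly, and hold only bases before the annotated gene start. That of Cd48 ends 17 bases short of it, and the other 3 reach it. The table held promoters of 7 of the 10 genes. Capitals mark matches, on either strand, to the ETS motif CAGGAA, whose other strand reads TTCCTG, and to the RUNX motif TGTGGT. ETS and RUNX factors are central regulators of blood stem cells.
Slamf1 (chr1:171766882-171767126, + strand): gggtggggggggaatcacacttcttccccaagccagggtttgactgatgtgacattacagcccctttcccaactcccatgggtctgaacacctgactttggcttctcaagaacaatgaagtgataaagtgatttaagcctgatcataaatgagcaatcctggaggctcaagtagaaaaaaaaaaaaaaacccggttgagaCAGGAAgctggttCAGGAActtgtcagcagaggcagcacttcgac
Cd48 (chr1:171681742-171681991, + strand): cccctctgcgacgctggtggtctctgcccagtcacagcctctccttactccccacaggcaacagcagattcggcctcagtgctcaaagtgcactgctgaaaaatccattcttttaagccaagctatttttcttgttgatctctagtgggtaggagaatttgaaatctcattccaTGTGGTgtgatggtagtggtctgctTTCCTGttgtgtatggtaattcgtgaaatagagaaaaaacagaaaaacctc
Cd34 (chr1:194938571-194938818, + strand): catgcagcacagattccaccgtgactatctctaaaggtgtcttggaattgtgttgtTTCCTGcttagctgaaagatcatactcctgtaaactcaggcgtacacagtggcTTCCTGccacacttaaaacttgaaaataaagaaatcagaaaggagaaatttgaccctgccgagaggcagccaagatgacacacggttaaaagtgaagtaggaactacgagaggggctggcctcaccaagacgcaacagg
Procr (chr2:155750967-155751116, + strand): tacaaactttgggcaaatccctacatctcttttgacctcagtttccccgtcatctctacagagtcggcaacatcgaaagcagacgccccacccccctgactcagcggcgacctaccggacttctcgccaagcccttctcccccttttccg
Slamf1 has the ETS letters at 45 to 40 and at 32 to 27 bases before its start. Cd34, which changed in the opposite direction, has them at 192 to 187 and at 139 to 134 bases. Cd48 has them at 68 to 63 bases and the RUNX letters at 93 to 88 bases, and the Procr stretch has neither. Over the whole 300-base promoters, the ETS letters were found in 3 of 7 members (Slamf1, Cd48 and Cd34) and in 30.6% of 32851 mouse promoters. The RUNX letters were found in 1 of 7 and in 16.8%. The GATA letters AGATAA were in 0 of 7 and in 11.2%, and the STAT letters TTCNNNGAA in 0 of 7 and in 8.30%. These shares describe the letters in this window, not binding.

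Estimated from the smallest steps between low values, depth was 27.4 to 54.0 M reads per library: 43.8 to 54.0 in control, 27.4 to 53.2 in control 5-FU, 28.9 to 37.3 in antibiotics and 31.4 to 38.0 in antibiotics 5-FU. With the annotated exon lengths, that gives about 21000 to 52448 reads for Ly6e in a library, 1278 to 8347 for Ly6a, 3423 to 7784 for Kit, 153 to 711 for Slamf1 and 97 to 268 for Flt3. Cd48 had only about 6 to 23, so counting error alone is large for it. These are approximate, because the transcript lengths the authors used are not given.

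Replicate 1 of control 5-FU and replicate 1 of antibiotics 5-FU stood apart from the other 10 libraries in several endothelial transcripts. By the index in the names, each library without antibiotics shares an index with 1 given antibiotics, and these 2 are such a pair. The part of the index in the values below was not tested. Cdh5, the endothelial cadherin gene, was at 1.91 and 1.005 RPKM in them and at 0.0027 to 0.0704 in the others. Kdr, the VEGF receptor gene, was at 3.72 and 1.70 against 0.0595 to 0.465, and Gpihbp1 at 18.4 and 5.70 against at most 0.767. The stromal gene Col1a1 was at 2.335 and 0.389 RPKM in them and at no more than 0.0339 in the others. Cxcl12 was at 4.72 and 23.4 in them, but also at 4.98 in replicate 1 of control, which was kept. In the other libraries after 5-FU, Cxcl12 was at no more than 0.2495. The 9 stromal and endothelial genes summed to 3.79 to 8.61 RPKM in control, 6.19 to 23.9 in control 5-FU, 3.35 to 3.47 in antibiotics and 6.70 to 35.4 in antibiotics 5-FU. Of the 5 that were tested, Pecam1, Tek and Vwf rose with 5-FU in both arms, and HSCs express these 3 as well. Over all tested genes, 9.74% rose in the control arm and 13.7% in the antibiotic arm. Pecam1 was at 2.219 and 1.847 RPKM in the 2 libraries that stood apart and at 1.159 to 1.499 in the others after 5-FU. Vwf was at 5.799 in replicate 1 of control 5-FU. In replicate 1 of antibiotics 5-FU it lay within the 2.707 to 3.611 of those others, so Vwf did not set that library apart. Procr, Esam, Cd34 and Ly6a are also expressed by endothelial cells. The 5-FU changes, the ratios, the list counts and the larger antibiotic differences are therefore also given without replicate 1 of each 5-FU group. This setting was chosen after seeing the data. Of the T and NK cell genes, Cd3e, Cd3g, Cd8a and Ncr1 were listed at the floor in every library, as were Ms4a1 and Pax5 of the B-cell genes. Other genes of these lists were present: Nkg7 stood at 23.4 to 49.5 RPKM and Cd79b at 8.56 to 14.97. Klrb1c, which encodes the NK cell receptor NK1.1, rose from 0.865 to 5.38 RPKM in the control arm and from 0.708 to 5.85 in the antibiotic arm (adjusted p = 3.54e-05 and 1.49e-05 in limma). The 13 neutrophil and monocyte genes summed to 34.5 to 257.8 RPKM in control 5-FU, against 9.82 to 20.9 in control, 9.07 to 19.99 in antibiotics and 13.2 to 35.7 in antibiotics 5-FU. The 10 erythroid genes summed to 29.7 to 305.9, 144.9 to 230.2, 40.6 to 58.8 and 167.7 to 510.3 RPKM in control, control 5-FU, antibiotics and antibiotics 5-FU. The 9 myeloid progenitor genes summed to 20.7 to 30.3, 25.4 to 86.7, 15.2 to 20.8 and 29.7 to 37.3 RPKM in the same order. For the 8 macrophage genes the sums were 8.30 to 23.1, 13.7 to 28.65, 10.3 to 34.3 and 25.8 to 30.6 RPKM. For the 9 lymphoid progenitor genes they were 1.30 to 1.61, 1.89 to 3.80, 1.69 to 2.17 and 2.06 to 3.15 RPKM. The part of NK cell, B-cell, neutrophil, erythroid, macrophage or progenitor transcripts in the results below was not tested.

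The levels of the 10 genes, which RPKM scales by length, span almost the whole range of expression. Averaged over the 12 libraries, Ly6e stood at 219 RPKM, above 98.6% of tested genes, and Ly6a at 85.7. Esam (28.9), Procr (23.5), Cd34 (16.7) and Kit (15.8) formed a middle band, and Slamf1 (1.79), Flt3 (0.867), Fgd5 (0.736) and Cd48 (0.318) were low. Ly6e and Ly6a were first and second, and Cd48 last, in 12 of 12 libraries. The middle band overlapped within groups: in control, Cd34 at 20.7 ± 3.77 RPKM (SD, n = 3) overlapped both Procr at 19.7 ± 2.25 and Esam at 22.9 ± 1.24, while the 3 Esam values lay above the 3 Procr values. Flt3 and Fgd5 also overlapped in 3 of the 4 groups. Against the defining proteins of the labelled cell type, Ly6a, Kit, Procr and Esam transcripts were plain in 12 of 12 libraries and Cd48 and Flt3 were near the bottom, while Slamf1 was low and Cd34 stood with Kit. Across the 12 libraries the highest value was 1.31 times the lowest for Kit and 1.44 times for Ly6e, against 3.84 times for Ly6a, 3.72 times for Slamf1 and 3.37 times for Esam.

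Of the 8 tested members, 3 rose and 1 fell after 5-FU in the control arm, and 4 rose and 1 fell in the antibiotic arm (limma on log2(RPKM + 1), adjusted p under 0.05, Benjamini-Hochberg over 8553 genes). Over all tested genes, 9.74% rose and 11.8% fell in the control arm, and 13.7% rose and 16.5% fell in the antibiotic arm. All 3 libraries of one group lay above all 3 of the other for 4 of the 8 in the control arm, beside 37.0% of all genes, and for 5 of the 8 in the antibiotic arm, beside 49.9%. The median log2 change of the 8 was 0.27 and 0.37 in the control and antibiotic arm, and that of all tested genes was 0.0045 and -0.014. The split of all called genes depends on scaling: 45.1% and 45.4% of the calls were higher in the 2 arms, but 81.1% and 74.1% after rescaling each library to a common total (TPM), which moved the median of all genes up by 0.17 and 0.16. In bulk RNA, fewer cells of a type and less RNA per cell cannot be told apart.

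Kit encodes the receptor tyrosine kinase for stem cell factor, which HSCs need for survival. Its 3 libraries stood at 17.4, 16.9 and 16.2 RPKM in control and at 14.3, 16.2 and 16.5 in control 5-FU. With antibiotics they stood at 16.5, 13.3 and 16.3, and with antibiotics and 5-FU at 13.5, 16.7 and 15.2. The 4 groups overlapped. The log2 change after 5-FU was -0.099 ± 0.10 (SE) in the control arm, with a 95% interval of -0.32 to 0.12, and -0.020 ± 0.10 (-0.24 to 0.20) in the antibiotic arm, with adjusted p-values of 0.509 and 0.899 in limma. TPM rescaling gave 0.076 and 0.15, which is -0.10 and 0.0045 relative to the shifted median of all genes. With the 2 libraries that carry endothelial transcripts left out, the antibiotic-arm change was 0.056 (adjusted p = 0.709).

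Flt3 encodes the related receptor tyrosine kinase that marks multipotent and lymphoid-primed progenitors. It stood at 0.696, 0.502 and 0.478 RPKM in control, 0.570, 0.791 and 1.06 in control 5-FU, 1.05, 0.956 and 1.07 in antibiotics, and 0.967, 1.34 and 0.927 in antibiotics 5-FU. Only 4 of its 12 libraries reached 1 RPKM, and 3 of these 4 came from mice given antibiotics. The log2 change after 5-FU was 0.21 ± 0.11 (interval -0.035 to 0.45, adjusted p = 0.197) in the control arm and 0.034 ± 0.11 (-0.21 to 0.28, adjusted p = 0.843) in the antibiotic arm, in limma. It passed the filter through these 4, so its difference between antibiotic and control libraries is given below as a description. An antisense transcript that overlaps its start, Gm26597, was listed at 0.0329 to 0.429 RPKM, below every Flt3 value (0.478 to 1.34). Whether the counting used strand is not given, so reads of the pair cannot be told apart.

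Ly6a encodes SCA-1, a GPI-anchored protein that, with KIT, defines the compartment of stem and multipotent cells, and which interferons induce. It stood at 55.5, 63.7 and 65.6 RPKM in control and at 133, 130.1 and 117 in control 5-FU. In the antibiotic groups it stood at 34.7, 45.3 and 59.3 without 5-FU and at 119.9, 109.9 and 94.6 with it. The lowest of the 6 libraries after 5-FU, at 94.6, was above the highest of the other 6, at 65.6. The log2 change was 1.03 ± 0.16 (adjusted p = 0.00216) in the control arm and 1.23 ± 0.16 (adjusted p = 0.000506) in the antibiotic arm, in limma. On this scale they were the largest changes after 5-FU among the tested members in each arm. After leaving out the 2 libraries with endothelial transcripts, the changes were 0.99 (adjusted p = 0.00688) and 1.15 (adjusted p = 0.00278).

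Ly6e encodes a second GPI-anchored Ly6 protein, present on many blood cells and also interferon-induced. It stood at 216, 237 and 243 RPKM in control, 232, 260.4 and 229.6 in control 5-FU, 181, 205 and 228 in antibiotics, and 209, 207 and 182 in antibiotics 5-FU. While its neighbour Ly6a rose, Ly6e overlapped between the groups with and without 5-FU in both arms. The log2 change after 5-FU was 0.054 ± 0.095 (interval -0.16 to 0.26, adjusted p = 0.717) and -0.035 ± 0.095 (-0.24 to 0.17, adjusted p = 0.809), in limma. After TPM rescaling the control-arm change was 0.24 with an adjusted p of 0.0479, which is 0.059 above the shifted median of all genes.

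Part of the Ly6a sequence is shared with its chromosome 15 relatives, which bears on how short reads are assigned. In GENCODE M21 transcripts, the longest run shared by Ly6a and Ly6c1 was 118 bases, and that shared with Ly6i was 80 bases. Ly6e shared no run of 20 bases with Ly6a. The coding parts of the 2 runs are shown on the transcribed strand, with no capitals since every base is shared.
Ly6a and Ly6c1 (chr15:74997575-74997604, − strand): atggacacttctcacactacaaagtcctgt
Ly6a and Ly6i (spliced within chr15:74996510-74997555, − strand): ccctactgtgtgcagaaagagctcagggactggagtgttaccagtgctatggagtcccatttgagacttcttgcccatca
The rest of the longer run is untranslated. Ly6c1 was listed at 0.0202 to 5.09 RPKM and Ly6i at no more than 0.227 RPKM, against 34.7 to 133 for Ly6a. The 5.09 was in replicate 1 of control 5-FU, 1 of the 2 libraries with endothelial transcripts. Of 14 Ly6 family genes in the table, only Ly6a and Ly6e passed the filter.

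Slamf1 encodes CD150, the SLAM receptor on which HSCs are gated. It stood at 1.18, 1.24 and 1.36 RPKM in control, 2.43, 2.11 and 1.96 in control 5-FU, 0.815, 0.872 and 1.21 in antibiotics, and 2.57, 2.72 and 3.03 in antibiotics 5-FU. All 6 libraries after 5-FU were above the other 6. The log2(RPKM + 1) change was 0.49 ± 0.091 (adjusted p = 0.00498) in the control arm and 0.95 ± 0.091 (adjusted p = 9.82e-05) in the antibiotic arm, in limma. At this low level the pseudocount shrinks the change, and the ratios of mean RPKM were 1.72 and 2.88. When the 2 libraries with endothelial transcripts were left out, the changes were 0.43 (adjusted p = 0.0152) and 0.99 (adjusted p = 0.000389).

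Cd48 encodes the SLAM family protein whose absence, with CD150, marks HSCs. It stood at 0.439, 0.218 and 0.156 RPKM in control, 0.186, 0.341 and 0.358 in control 5-FU, 0.302, 0.287 and 0.250 in antibiotics, and 0.295, 0.463 and 0.514 in antibiotics 5-FU. No 2 groups compared were free of overlap. With no filter on level, its log2(RPKM + 1) change after 5-FU was 0.031 and 0.15 in the control and antibiotic arm, with adjusted p-values of 0.960 and 0.415 in limma. At about 6 to 23 reads a library, the intervals of counting are wide beside these differences, and no change was detectable at this depth. A same-strand feature inside the gene, Gm37010, was listed at up to 0.148 RPKM, and reads of the pair cannot be told apart. Of the other SLAM family genes, Cd84 rose by 0.41 ± 0.085 (adjusted p = 0.00498 in limma) and Ly9 fell by 0.45 (adjusted p = 0.0293) in the antibiotic arm. In the control arm, Slamf1 was the 1 of 3 tested SLAM family genes that passed the test. Over all tested genes, 9.74% rose and 11.8% fell there. Ly9 was at -0.37 ± 0.14 (adjusted p = 0.0773 in limma) and Cd84 at 0.16 ± 0.085 (adjusted p = 0.1975) in that arm. Without the 2 libraries with endothelial transcripts, the antibiotic-arm values were 0.49 (adjusted p = 0.00344) for Cd84 and -0.37 (adjusted p = 0.0920) for Ly9.

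Procr encodes the endothelial protein C receptor (EPCR), which marks HSCs with long-term activity. It stood at 17.2, 21.3 and 20.7 RPKM in control, 20.2, 28.2 and 27.3 in control 5-FU, 15.9, 17.4 and 22.3 in antibiotics, and 29.3, 31.6 and 31.1 in antibiotics 5-FU. In the control arm replicate 1 after 5-FU fell within the control range, and the change of 0.33 ± 0.14 did not pass the test (interval 0.013 to 0.65, adjusted p = 0.1225 in limma). In the antibiotic arm the groups did not overlap, and Procr rose by 0.71 ± 0.14 (adjusted p = 0.00453). The control-arm replicate 1 was 1 of the 2 libraries with endothelial transcripts. Without that library alone the control-arm change was 0.48 (adjusted p = 0.0263). Without both of them the changes were 0.48 (adjusted p = 0.0355) and 0.74 (adjusted p = 0.00481), so the control-arm change then passed the test. It also passed after TPM rescaling, at 0.52 (adjusted p = 0.0265), which is 0.35 above the shifted median of all genes. F2r, the thrombin receptor through which activated protein C signals, rose by 1.19 ± 0.25 (adjusted p = 0.00867) and 1.25 ± 0.25 (adjusted p = 0.00425) in the 2 arms. Without both libraries F2r rose by 0.86 (adjusted p = 0.00868) and 1.13 (adjusted p = 0.00208).

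Esam encodes an adhesion molecule of endothelial cells, platelets and HSCs. It stood at 24.3, 22.5 and 21.9 RPKM in control and at 51.7, 32.5 and 35.7 in control 5-FU. In the antibiotic groups it stood at 16.7, 15.3 and 19.4 without 5-FU and at 40.9, 32.1 and 34.0 with it. The 2 highest values of all 12, 51.7 and 40.9, were in the 2 libraries with endothelial transcripts, and the other 4 libraries after 5-FU were still above all 6 without it. Esam rose by 0.75 ± 0.16 (adjusted p = 0.00817) and 1.01 ± 0.16 (adjusted p = 0.00113), in limma. Without those 2 libraries it rose by 0.55 (adjusted p = 0.0072) and 0.92 (adjusted p = 0.000688).

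**Figure D2:**
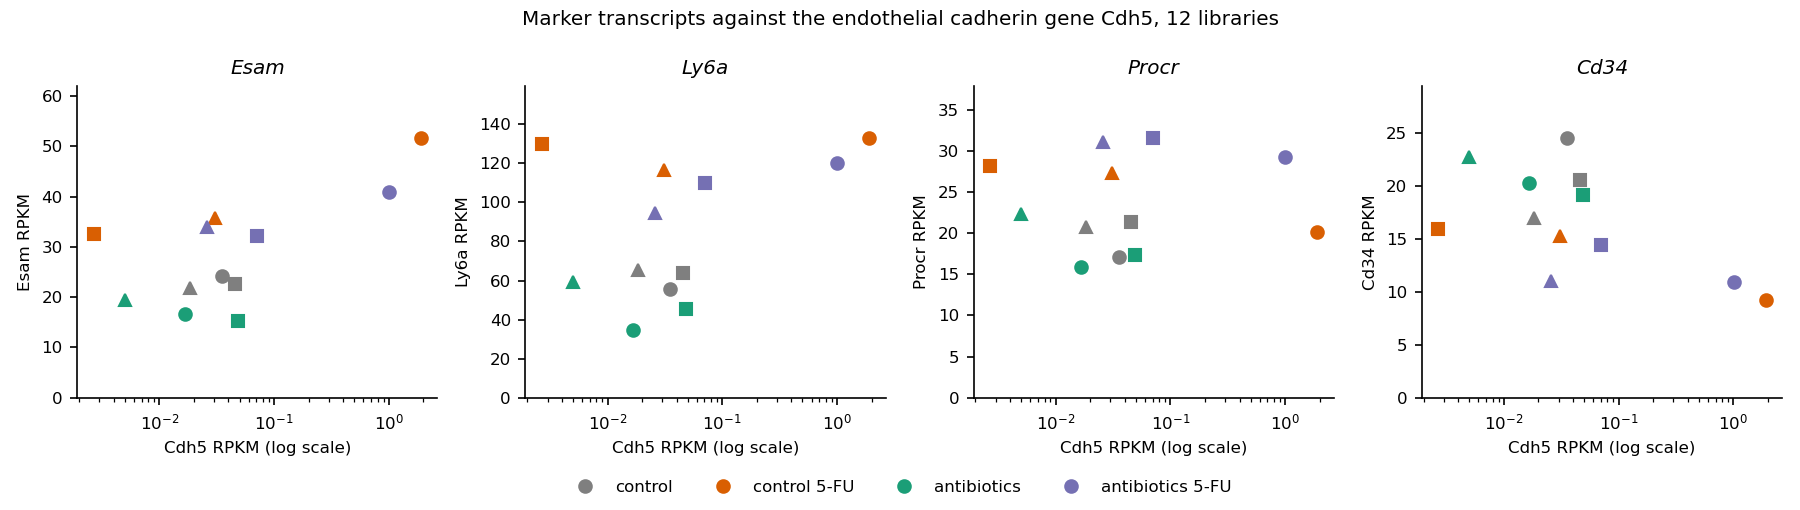
Esam, Ly6a, Procr and Cd34 in RPKM (y axes, from 0) against Cdh5 in RPKM (x axes, log scale) in the 12 libraries, coloured by group, with shape giving the library number. Replicate 1 of each 5-FU group stands alone at Cdh5 values of 1.91 and 1.005, with the highest Esam values (51.7 and 40.9), while the other 4 libraries after 5-FU have low Cdh5 and Esam of 32.1 to 35.7. The same libraries have the lowest Cd34 values of the 12 (9.17 and 10.88). Within its 5-FU group, each also has the lowest Procr (20.2 and 29.3) and the highest Ly6a (133 and 119.9).

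Cd34 encodes a sialomucin that is low on the most primitive adult mouse HSCs and present on progenitors and endothelium. It stood at 24.5, 20.5 and 17.0 RPKM in control, 9.17, 15.9 and 15.2 in control 5-FU, 20.2, 19.1 and 22.7 in antibiotics, and 10.88, 14.44 and 10.9997 in antibiotics 5-FU. It was the 1 member that fell. The log2 change was -0.61 ± 0.19 (adjusted p = 0.0440) and -0.73 ± 0.19 (adjusted p = 0.0151), in limma. The control-arm call is near the threshold: it was lost in 13 of 20 alternative settings, with adjusted p-values up to 0.143 and values of -0.74 to -0.37. It was lost without control replicate 1 (adjusted p = 0.141) or 2 (0.0879), without control 5-FU replicate 1 (0.0999) or 3 (0.0578), and, through the shared spread, without any 1 antibiotics library (0.0525 to 0.0561) or antibiotics 5-FU replicate 1 or 3 (0.055 and 0.0566). The antibiotic-arm call was lost in 4 of 20, including without antibiotics 5-FU replicate 1 (0.0513) or 3 (0.053), with adjusted p-values up to 0.0638. With the 2 libraries that carry endothelial transcripts left out, the control-arm change was -0.37 (adjusted p = 0.108), and the antibiotic-arm change was -0.67 (adjusted p = 0.0123). Cd34 was above Kit in 6 of 6 libraries without 5-FU and below Kit in 6 of 6 with it.

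Fgd5 stood at 0.649, 0.492 and 0.693 RPKM in control, 0.659, 0.666 and 0.828 in control 5-FU, 0.794, 0.593 and 0.697 in antibiotics, and 0.860, 0.857 and 1.05 in antibiotics 5-FU. The antibiotics 5-FU libraries were above those of antibiotics and of control 5-FU. It did not reach the level asked for testing, and with no filter its changes after 5-FU were 0.093 (adjusted p = 0.546) and 0.18 (adjusted p = 0.172) in limma. Of its family, only Fgd2 was tested, and it rose by 0.31 ± 0.10 in the antibiotic arm (adjusted p = 0.0383). After leaving out the 2 libraries with endothelial transcripts, that value was 0.34 (adjusted p = 0.0629). Fgd5 overlaps the same-strand feature RP23-292N18.3, listed at up to 0.525 RPKM, and the antisense 4930466I24Rik, at up to 0.23, and reads of the 3 cannot be told apart.

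None of the 8 tested members passed the test between mice with and without antibiotics. Across all genes, 0.0702% were called between antibiotics and control and 0.117% between antibiotics 5-FU and control 5-FU, in either direction, which is 6 and 10 genes. Of these calls 50% and 60% were higher with antibiotics, and 38.5% and 44.7% after TPM rescaling. At an unadjusted p under 0.05, limma found 4 of the 8 in the first comparison (Slamf1, Ly6a, Esam and Flt3). It found 2 in the second (Slamf1 and Ly6e), beside 1519 and 1275 of all 8553 tested genes in these comparisons. Flt3 passed the filter mainly through its antibiotic libraries, so its values here are a description only. Groups did not overlap for Flt3, which was higher, and Esam, which was lower, with antibiotics alone, beside 22.1% of all genes. After 5-FU they did not overlap for Procr and Slamf1, which were higher with antibiotics, for Ly6e, which was lower, and for Fgd5, which was not tested, beside 21.2% of all genes.

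With antibiotics against control, Ly6a differed by -0.43 ± 0.16 (interval -0.78 to -0.076, adjusted p = 0.217 in limma). That value was -0.24 (adjusted p = 0.525) without antibiotics replicate 1 and -0.62 (adjusted p = 0.0699) without antibiotics replicate 3. Esam differed by -0.40 ± 0.16 (-0.75 to -0.060, adjusted p = 0.228) and Slamf1 by -0.21 ± 0.091 (-0.41 to -0.0062, adjusted p = 0.271). Cd34 was at 20.7 RPKM in both groups. Intervals for Procr (-0.41 to 0.22), Ly6e (-0.39 to 0.025) and Kit (-0.35 to 0.092) include both directions. Flt3 stood at 1.02 ± 0.0593 RPKM against 0.559 ± 0.119 (SD, n = 3), a log2(RPKM + 1) difference of 0.38 ± 0.11 (adjusted p = 0.153 in limma). It passed the filter mainly through its antibiotic libraries, so this value is a description only.

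After 5-FU, Ly6e stood at 199 ± 15.1 RPKM with antibiotics and 241 ± 17.0 without (SD, n = 3), a log2 difference of -0.27 ± 0.095 (interval -0.48 to -0.064, adjusted p = 0.206 in limma). Slamf1 differed by 0.25 ± 0.091 (0.054 to 0.45, adjusted p = 0.218) and Procr by 0.29 ± 0.14 (-0.030 to 0.60, adjusted p = 0.386). The differences of Ly6a (-0.23), Esam (-0.14), Cd34 (-0.11), Kit (-0.050) and Flt3 (0.21) all had intervals that include 0. When the 2 libraries with endothelial transcripts were left out, Ly6e differed by -0.33 (adjusted p = 0.367), Slamf1 by 0.35 (0.283) and Procr by 0.17 (0.724).

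Whether the response to 5-FU differed between the arms was tested as an interaction. No member passed, beside 0.0117% of all genes, which is 1 gene, and 710 genes had an unadjusted p under 0.05. Slamf1 had the largest value: its 5-FU change was 0.46 ± 0.13 greater with antibiotics (interval 0.18 to 0.74, unadjusted p = 0.0042, adjusted p = 0.505 in limma). Procr came next at 0.38 ± 0.20 (-0.068 to 0.83, adjusted p = 0.652). Procr passed the test in 1 arm only, but that difference between the arms was not itself called. Without the 2 libraries with endothelial transcripts the values were 0.56 for Slamf1 (adjusted p = 0.679) and 0.26 for Procr (adjusted p = 0.790).

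**Figure D3:**
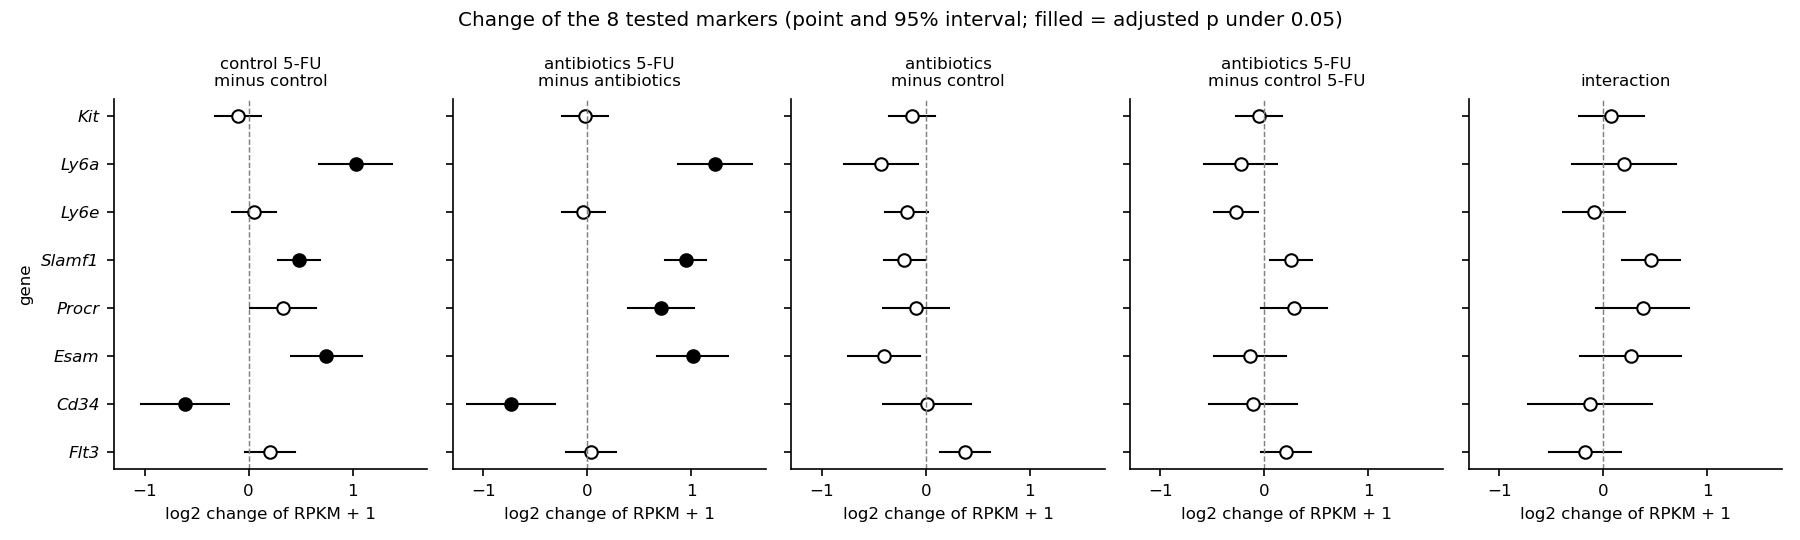
Log2 change of RPKM + 1 for the 8 tested members (y axis) in the 4 pairwise comparisons and the interaction (one panel each), as limma estimates with 95% intervals. Filled points have an adjusted p under 0.05: Ly6a, Slamf1, Esam and Cd34 in both 5-FU panels and Procr in the antibiotic arm, and none in the other 3 panels.

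Ratios of 2 members within a library do not depend on how libraries are scaled to each other, unless a constant is added. With the constant added here they depend on it where a gene is low, as for Cd48. 3 ratios were formed from pairs read together in HSC sorting, after adding 0.1 RPKM to each value. Ly6a over Kit was 1.86 ± 0.178 on the log2 scale in control, 3.01 ± 0.197 in control 5-FU, 1.56 ± 0.430 in antibiotics and 2.83 ± 0.279 in antibiotics 5-FU (SD, n = 3). All 6 libraries after 5-FU were above all 6 others, and the mean difference over both arms was 1.21 (exact permutation within arms, two-sided, p = 0.005, the smallest its 400 relabellings can give, adjusted p = 0.015 over 6 tests). Procr over Cd34 was -0.056 ± 0.411 in control, 0.93 ± 0.174 in control 5-FU, -0.17 ± 0.162 in antibiotics and 1.34 ± 0.195 in antibiotics 5-FU. It differed by 1.25 (exact permutation p = 0.005, adjusted p = 0.015), again with no overlap between the libraries with and without 5-FU. With the 2 libraries that carry endothelial transcripts left out, the differences were 1.08 and 1.18 (exact permutation, adjusted p = 0.03 for each).

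Slamf1 over Cd48, the pair behind the CD150+ CD48- gate, was 1.94 ± 0.643 on the log2 scale in control, 2.55 ± 0.524 in control 5-FU, 1.47 ± 0.376 in antibiotics and 2.48 ± 0.243 in antibiotics 5-FU (SD, n = 3). It differed by 0.80 with 5-FU (exact permutation p = 0.02, adjusted p = 0.04). The control and control 5-FU libraries overlapped, at 1.25, 2.07 and 2.51 against 3.15, 2.32 and 2.17. The adjusted p was 0.05 to 0.12 with 1 library left out, except replicate 3 of control, control 5-FU or antibiotics, and without the 2 libraries with endothelial transcripts the difference was 0.58 (exact permutation, adjusted p = 0.125). With antibiotics against none, the 3 ratios differed by -0.24, 0.15 and -0.27 for Ly6a over Kit, Procr over Cd34 and Slamf1 over Cd48 (exact permutation, adjusted p = 0.24, 0.39 and 0.384).

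**Figure D4:**
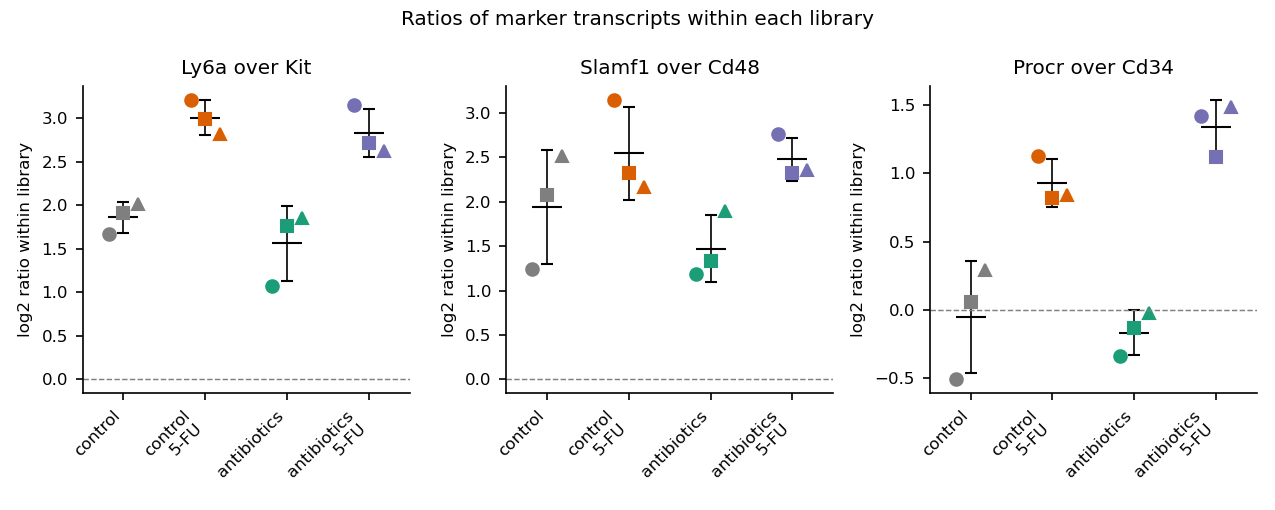
Log2 ratio of 2 marker transcripts within each library (y axis) by group (x axis), with group mean (long bar) and SD (short bars), n = 3, and shape giving the library number. The ratios of Ly6a over Kit and of Procr over Cd34 separate the 6 libraries after 5-FU from the other 6, and the ratio of Slamf1 over Cd48 overlaps in the control arm.

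Across the 12 libraries, correlations between the members that changed with 5-FU ranged widely. Pearson's r of log2(RPKM + 1) was 0.93 for Ly6a with Esam, 0.90 for Ly6a with Slamf1, 0.89 for Slamf1 with Esam and 0.86 for Procr with Slamf1, but 0.79 for Procr with Ly6a and 0.63 for Procr with Esam. It was -0.84 for Cd34 with Slamf1 and with Esam, -0.76 with Ly6a and -0.57 with Procr, and 0.39 for Ly6a with Ly6e. Over the 10 libraries left without the 2 with endothelial transcripts, r was 0.87 for Procr with Esam, 0.92 for Procr with Ly6a and -0.80 for Procr with Cd34. Other pairs were weaker there, at -0.69 for Cd34 with Esam, -0.67 for Cd34 with Ly6a and 0.88 for Ly6a with Slamf1. These 12 points share the 4 groups, so the values describe the group differences as much as the libraries. Among 2773 or 2774 other genes with a mean of at least 5 RPKM, the patterns most like Esam were those of Ifngr1 (r = 0.977) and Cd9 (0.974). For Slamf1 they were Dctn2 (0.973) and H1f0 (0.972), for Ly6a Tmem140 (0.969) and Nfkbia (0.960), and for Procr Agtrap and Gimap6 (0.961 each). For Cd34 they were Parvg (0.928) and Selenbp1 (0.925). The members that passed no test had less close partners, at 0.892 for Ly6e with Eef2, 0.896 for Flt3 with Fmnl1 and 0.881 for Kit with Ddx28.

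Other surface genes of HSCs were examined as a list of 31, of which 23 were tested. After 5-FU, 13 of the 23 rose and 1 fell in the control arm, and 10 rose and 1 fell in the antibiotic arm. The median log2 change was 0.42 and 0.41. Over all tested genes, 9.74% and 13.7% rose, and 11.8% and 16.5% fell. After leaving out the 2 libraries with endothelial transcripts, 11 of the 23 rose and 2 fell in each arm. In that setting 9.61% and 12.6% of all genes rose in the control and antibiotic arm, and 12.8% and 15.4% fell. Selp, which encodes P-selectin, rose from 3.04 to 14.8 RPKM and from 1.30 to 13.7 RPKM (log2 change 2.01 ± 0.17, adjusted p = 6.39e-05, and 2.68 ± 0.17, adjusted p = 1.18e-05, in limma). Clca3a1 rose by 1.31 ± 0.13 and 1.004 ± 0.13 in the control and antibiotic arm. When these 2 libraries were left out, Selp rose by 2.04 and 2.72, and Clca3a1 by 1.25 and 0.92.

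Among 23 ligands, adaptors and partners of the members, 13 were tested. In each arm 5 rose and 0 fell, with medians of 0.23 and 0.28. Over all tested genes, 9.74% and 13.7% rose, and 11.8% and 16.5% fell. Without the 2 libraries with endothelial transcripts 6 rose in each arm, beside 9.61% and 12.6% of all genes. In that setting 1 and 0 fell, beside 12.8% and 15.4%. The 1 was Thbd, the thrombomodulin gene, which fell by 1.17 in the control arm (adjusted p = 0.0195 in limma). The 5 included Stat3 (0.64 ± 0.10 and 0.67 ± 0.10) and Stat5b (0.39 ± 0.066 and 0.38 ± 0.066), which carry cytokine receptor signals, and the kinase gene Lyn (0.35 ± 0.069 and 0.26 ± 0.069). The other 2 were F2r and Selp, given above. Of 27 tested type I interferon genes, listed because interferon induces Ly6a and Ly6e, 3 rose and 1 fell in the control arm (median 0.018), and 10 rose and 0 fell in the antibiotic arm (median 0.34). Over all genes 9.74% rose and 11.8% fell in the control arm, and 13.7% and 16.5% in the antibiotic arm. With the 2 libraries that carry endothelial transcripts left out, of 26 tested, 2 rose and 3 fell (Isg20, Bst2 and Ifitm3) in the control arm, and 10 rose and 1 fell (Bst2) in the antibiotic arm. Rsad2 rose by 0.41 ± 0.087 and 0.81 ± 0.087, Irf7 by 1.02 ± 0.16 in the antibiotic arm, and Isg20 fell by 0.57 in the control arm. That difference between the arms was not called for any interferon gene. With all 12 libraries, 0 genes of any list were called in the 2 antibiotic comparisons or the interaction. Without the 2 libraries with endothelial transcripts, the erythroid gene Klf1 differed by -1.27 with antibiotics against control (adjusted p = 0.0132 in limma).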

How the data were processed

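The deposited table holds RPKM values that the authors made per gene. STAR 2.5.3a, Partek and the mm10 build are named per the submitters' processing notes, and RNeasy Plus Micro, SMART-Seq v4 and Nextera XT kits per the labels' protocols. No label or header states the counting rule, strand setting or transcript lengths. The value 0.0001 stands for 0. Values sum to 142127 to 176924 per library and were not rescaled.

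Depth was estimated from steps between low values. Only 35.1% to 39.0% of them lay within 2% of a whole number of reads, between 0.5 and 10.5 steps, so no count test was run. limma 3.58.1 (R 4.3.3) was run on log2(RPKM + 1) over the 8553 genes that reached 1 RPKM in 3 or more libraries, fitting 4 group means to all 12 libraries, a variance trend and Benjamini-Hochberg adjustment, called at 0.05. It was first tested on simulated data. Fold changes on this scale understate the change of low genes. For single genes, 3 against 3 permutations cannot go below p = 0.1. Ratios used exact permutation within arms, with 6 tests adjusted together. Positions and transcript runs used GENCODE M21 and BLAST+ 2.17.0.

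The 10 members and all lists were chosen with earlier results of these data known. All members were named in every comparison. Of a list, up to 4 called genes with the smallest p were named per comparison, and each member got its 2 most correlated genes. Some genes of the list of other surface genes are not reported here. Cdh5, Kdr, Gpihbp1, Col1a1, Cxcl12, Ly6c1, Ly6i, Nkg7, Cd79b, Thbd, Bst2, Ifitm3, Klf1 and the overlapping features were named after their values were seen. Alternatives changed the pseudocount, filter, scaling, samples fitted and index term, and left out each library.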

Additional observations from a re-analysis of the deposited data

How the results depend on the processing

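All 9 called member changes kept their direction in 180 alternative values. In many of these the direction could not change. The filter, the variance trend and the libraries outside the 2 groups compared alter the p-value but not the estimate. 17 of the 180 values no longer passed the test, 13 for Cd34 in the control arm and 4 for Cd34 in the antibiotic arm, where adjusted p reached 0.0638. The number of members called was 3 to 5 after 5-FU in the control arm, 4 to 5 in the antibiotic arm and 0 in the other comparisons under every alternative run. The index term, which could be fitted for the antibiotic comparisons and the interaction, called no member.

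The ratio of Slamf1 over Cd48 after 5-FU ranged from 0.63 to 0.95 with 1 library left out, and the adjusted p then reached 0.12 (exact permutation). It was 0.58 without both libraries that carried endothelial transcripts, an alternative chosen after seeing the data. Adding 1 RPKM to each value in place of 0.1 gave 0.62, against 0.80.

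Only uncalled members changed sign. TPM rescaling moved the median of all genes up by 0.17 and 0.16 in the control and antibiotic arm. TPM rescaling gave Kit 0.076 in the control arm, and Ly6e 0.14 and Kit 0.15 in the antibiotic arm, and Cd34 -0.019 with antibiotics against control. Scaling by median of ratios gave 0.00054 for Ly6e and 0.014 for Kit in the antibiotic arm, and -0.0031 for Cd34 with antibiotics against control. Without both libraries with endothelial transcripts Kit was 0.056 in the antibiotic arm. With 1 library left out, the ranges that crossed 0 were -0.0037 to 0.087 for Ly6e in the control arm. In the antibiotic arm they were -0.12 to 0.044 for Ly6e, -0.11 to 0.056 for Kit and -0.055 to 0.086 for Flt3. With antibiotics against control they were -0.23 to 0.0032 for Procr and -0.12 to 0.14 for Cd34. After 5-FU, with antibiotics against none, they were -0.12 to 0.026 for Kit, -0.27 to 0.058 for Esam and -0.35 to 0.019 for Cd34. For the interaction they were -0.016 to 0.15 for Kit and -0.36 to 0.0069 for Cd34. Their causes were not tested.

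The number of all genes called moved more. After 5-FU in the control arm it was 1846, 812 when only the 2 groups compared were fitted, 941 with replicate 3 of control left out and 995 with replicate 3 of control 5-FU left out. In the antibiotic arm it was 2586 and fell to 1620 and 1651 without replicate 2 of either group. With antibiotics against control it was 6 and ranged from 1 to 25, after 5-FU it was 10 and ranged from 3 to 47, and for the interaction it was 1 and ranged from 0 to 7. No paired analysis was possible because the labels give no replicate numbers. The index that pairs 1 library without with 1 given antibiotics was fitted as a term instead, and called 20, 22 and 0 genes in these 3 comparisons. Cd48, at 6 to 23 estimated reads, is limited by depth.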
